A study of Danio rerio with 15 samples.

Results

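The Bcl-2 family regulators of cell death were followed in zebrafish liver after irradiation. They comprised 10 of 8793 genes, read by 13 of 15502 probe sets. A probe set is a group of short probes that read a transcript together, and every probe set annotated to only 1 of these gene symbols was taken. There were 4 anti-apoptotic genes (mcl1a, mcl1b, bcl2l10 and bcl2l1) and 6 pro-apoptotic genes, of which bbc3, pmaip1, bida, bik and badb encode BH3-only proteins and baxa encodes an effector. The genes were selected on their symbols with earlier results of the same arrays known, and the measured values that chose them were the differences of each irradiated group from control and the embryo minus adult difference. Values for those comparisons are given as a description, with no test, and counts of genes past the threshold used for all probe sets are printed beside the share of all probe sets, with nothing read from them.

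Bcl-2 family proteins decide whether the outer membrane of the mitochondrion stays intact. Anti-apoptotic members hold the effectors Bax and Bak in check. BH3-only proteins bind the anti-apoptotic members or the effectors, and once the effectors form pores, cytochrome c reaches the cytosol and caspase-9 is activated. In mammals, BBC3 (Puma) and PMAIP1 (Noxa) are transcriptional targets of p53 and rise after ionizing radiation, and MCL1 protects hepatocytes from apoptosis.

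The 15 GeneChip Zebrafish Genome Arrays measured liver mRNA of AB males aged 16 weeks in 5 groups of 3, and every array read the pooled livers of 2 fish. Control fish were not irradiated. The embryo 0.1 Gy and embryo 1.0 Gy groups received γ-rays 24 hours post fertilization and were analysed as adults (long-term response). The adult 0.1 Gy and adult 1.0 Gy groups were irradiated as adults and analysed 4 hours later (acute response). Each embryo group was raised as a single batch, so irradiation and batch cannot be told apart there, and no sham irradiation is described for the controls, which came from the same cohort as the adult groups. P values measure only the spread between pools of the same batch.

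A conflict in the labels concerns 4 arrays. The source name of control replicates 2 and 3 reads irradiated as adults, and that of adult 0.1 Gy replicates 1 and 2 names no irradiation, whereas their title, dose and timing entries put them where they are used here. Values without these 4 arrays are given beside the results. In those fits the control and adult 0.1 Gy groups hold 1 array each, which is assumed to vary as the other groups do. Pearson correlations between arrays lay between 0.962 and 0.994. Of 12 hepatocyte markers 9 were measured, and their summed linear level was 189267 to 191084 in the controls. It was 181216 to 189260 and 183293 to 186231 in the embryo 0.1 and 1.0 Gy groups, all below the controls. The highest embryo 0.1 Gy array was almost level with the lowest control. The sum was 191779 to 200998 (all above the controls, by a narrow margin) and 190500 to 200911 in the adult 0.1 and 1.0 Gy groups. Fabp10a, the liver fatty acid-binding protein, read 14.97 to 15.07 (log2). All values below are log2 expression, differences carry their SE from limma, and levels of different genes are not compared because probes differ in their affinity.

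Among the anti-apoptotic genes, mcl1a was above control in all 4 irradiated groups. By group means, bcl2l10 was above control after adult irradiation and below it after embryo irradiation. Its embryo 1.0 Gy arrays overlapped with the controls, and without the 4 arrays its embryo differences were -0.44 and -0.06. Mcl1b was lowest in the embryo 1.0 Gy group and highest in the adult 0.1 Gy group, and bcl2l1 stayed near its control level at a low signal. The plot of each gene by group shows every array.

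**Figure D1:**
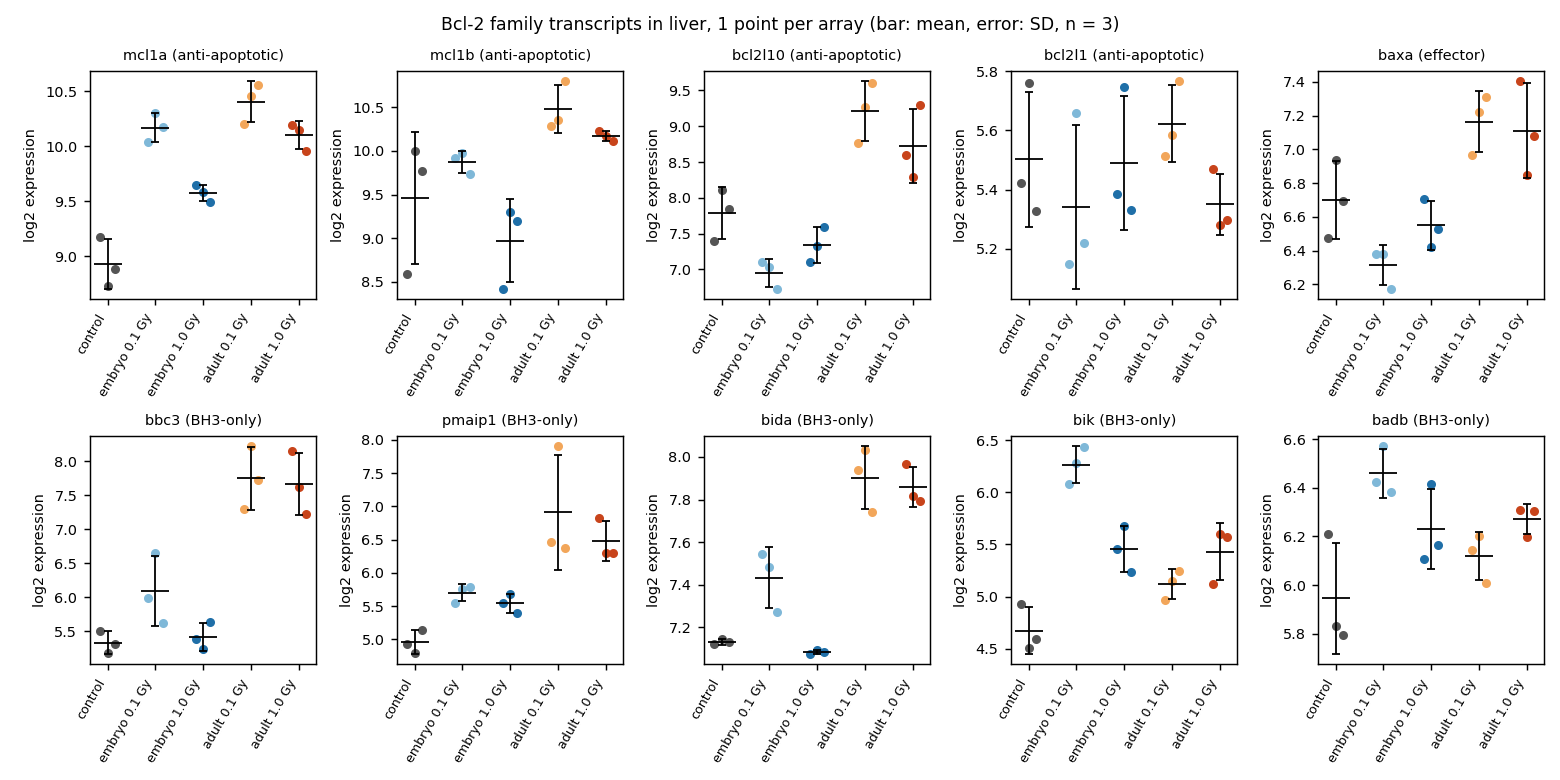
Log2 expression of the 10 genes (probe set with the highest mean for each) in the 5 groups. Points are arrays, bars are group means and error bars are the SD over 3 arrays. The vertical scale differs between panels. All 6 adult arrays of mcl1a, mcl1b, bcl2l10, bik, bbc3, pmaip1 and bida lie above all 3 controls, as for 18.8% of all probe sets. The genes were chosen on these control differences, so nothing is read from their number.

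Mcl1a, a short-lived protein that sequesters Bak and BH3-only proteins, read 9.17, 8.73 and 8.88 in the controls. It read 10.03, 10.30 and 10.18 in the embryo 0.1 Gy group, 9.64, 9.58 and 9.49 in the embryo 1.0 Gy group, 10.20, 10.46 and 10.56 in the adult 0.1 Gy group and 10.19, 10.15 and 9.96 in the adult 1.0 Gy group. Every irradiated array lay above every control, and the 3 embryo 1.0 Gy arrays lay below the other 9 irradiated arrays. The differences from control were 1.24 ± 0.13, 0.64 ± 0.13, 1.48 ± 0.13 and 1.17 ± 0.13 in the same order, which correspond to 2.36-, 1.56-, 2.78- and 2.25-fold. They were 1.00, 0.40, 1.39 and 0.93 without the 4 arrays.

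Mcl1b, the second zebrafish copy of this gene, read 8.59, 10.005 and 9.77 in the controls, and control replicate 1 stood apart. It read 9.92, 9.97 and 9.73 in the embryo 0.1 Gy group and 8.42, 9.30 and 9.19 in the embryo 1.0 Gy group. The adult arrays, at 10.29, 10.36 and 10.80 after 0.1 Gy and 10.22, 10.18 and 10.11 after 1.0 Gy, lay above all other arrays. Against control it differed by 0.42 ± 0.30 and -0.48 ± 0.30 in the embryo groups and 1.03 ± 0.30 and 0.71 ± 0.30 in the adult groups. They leaned on the controls kept: without control replicate 1 the adult 0.1 Gy difference was 0.60, and without the 4 arrays, which left replicate 1 as the only control, the adult differences were 2.21 and 1.58 and the embryo differences 1.28 and 0.38.

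Bcl2l10, whose zebrafish product protects cells at the endoplasmic reticulum and mitochondria, had the largest difference between timings among the anti-apoptotic genes. It read 7.40, 8.11 and 7.84 in the controls, 7.10, 7.03 and 6.73 in the embryo 0.1 Gy group and 7.10, 7.32 and 7.59 in the embryo 1.0 Gy group. After adult irradiation it read 8.76, 9.27 and 9.60 at 0.1 Gy and 8.60, 8.29 and 9.29 at 1.0 Gy. Adult arrays lay above all controls, embryo 0.1 Gy arrays lay below them, and embryo 1.0 Gy arrays overlapped with them. The adult differences were 1.43 ± 0.26 (2.69-fold) and 0.94 ± 0.26 (1.92-fold), and the embryo differences were -0.83 ± 0.26 and -0.45 ± 0.26. Without the 4 arrays the adult differences were 2.20 and 1.33, and the embryo differences were -0.44 and -0.06.

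Bcl2l1, which encodes Bcl-xL, was read by 2 probe sets. Their signal was low, with means of 5.46 and 4.96 over the arrays beside array medians of 5.01 to 5.14. This limits what small differences can show. The brighter ranged from 5.15 to 5.77 over the 15 arrays, and each group overlapped with the controls. Its differences from control lay between -0.16 ± 0.16 (embryo 0.1 Gy) and 0.12 ± 0.16 (adult 0.1 Gy). The other gave differences between -0.15 ± 0.14 and 0.11 ± 0.14. Neither probe set passed the F-test over the 5 groups (limma, adjusted p = 0.45 and 0.44). That test is built from the control differences that chose the genes, so its p values are a description. With 3 arrays per group they do not show that the level was unchanged.

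The pro-apoptotic genes fell into separate patterns. Bbc3, pmaip1 and bida were highest in the adult groups, and bik and badb were highest in the embryo 0.1 Gy group. By group means, baxa was above control in the adult groups and below it in the embryo groups. Its embryo 1.0 Gy and adult 1.0 Gy arrays overlapped with the controls. Without the arrays with conflicting source names, the embryo differences of baxa were -0.16 at 0.1 Gy and 0.08 at 1.0 Gy.

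Bbc3, the zebrafish Puma, had the largest difference from control of the 10 genes. It read 5.51, 5.18 and 5.32 in the controls, 5.99, 6.66 and 5.63 in the embryo 0.1 Gy group and 5.39, 5.23 and 5.64 in the embryo 1.0 Gy group. In the adult groups it read 7.30, 8.22 and 7.73 at 0.1 Gy and 8.15, 7.62 and 7.23 at 1.0 Gy, so that the lowest adult array was above every embryo and control array. The adult differences were 2.42 ± 0.28 (5.35-fold) and 2.34 ± 0.28 (5.05-fold), against 0.76 ± 0.28 and 0.09 ± 0.28 in the embryo groups. These were 2.22, 2.16, 0.59 and -0.09 without the 4 arrays.

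Pmaip1, the zebrafish Noxa, which neutralizes Mcl1 in mammals, read 4.93, 4.80 and 5.14 in the controls. It read 5.55, 5.76 and 5.79 in the embryo 0.1 Gy group and 5.54, 5.69 and 5.40 in the embryo 1.0 Gy group. In the adult groups it read 6.46, 7.90 and 6.37 at 0.1 Gy and 6.83, 6.30 and 6.30 at 1.0 Gy. By this probe set, the brighter of 2, all irradiated arrays lay above all controls and the adult arrays above the embryo arrays. Adult 0.1 Gy replicate 2, at 7.90, stood apart, and it is 1 of the 4 arrays with a conflicting source name. Differences from the controls were 0.74 ± 0.30, 0.58 ± 0.30, 1.95 ± 0.30 and 1.52 ± 0.30 in the embryo 0.1, embryo 1.0, adult 0.1 and adult 1.0 Gy groups, and 0.77, 0.61, 1.44 and 1.55 without the 4 arrays. The second probe set, at a low signal, gave -0.02 at both embryo doses and 0.34 and 0.29 in the adult groups.

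Bida, whose mammalian counterpart is cleaved by caspase-8 and links death receptors to mitochondria, varied little within groups. It read 7.12, 7.15 and 7.13 in the controls and 7.08, 7.09 and 7.08 in the embryo 1.0 Gy group. The embryo 0.1 Gy arrays read 7.54, 7.48 and 7.27, and the adult arrays read 7.94, 8.03 and 7.74 at 0.1 Gy and 7.97, 7.82 and 7.79 at 1.0 Gy. The groups formed a sequence without overlap from embryo 1.0 Gy through control and embryo 0.1 Gy to the adult groups, which overlapped with each other. Group differences took 94.6% of its variance over the arrays, near the 94.4% of mcl1a and 91.6% of bbc3. The genes were chosen on such differences, so these shares are a description. Against control bida differed by 0.77 ± 0.10 and 0.73 ± 0.10 in the adult groups and 0.30 ± 0.10 and -0.05 ± 0.10 in the embryo groups, and by 0.62, 0.74, 0.31 and -0.04 without the 4 arrays.

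Bik, a BH3-only protein of the endoplasmic reticulum in mammals, was the only gene of the 10 that was higher in the embryo than in the adult groups by the call given below. It read 4.93, 4.51 and 4.59 in the controls, 6.08, 6.28 and 6.43 in the embryo 0.1 Gy group and 5.45, 5.68 and 5.24 in the embryo 1.0 Gy group. In the adult groups it read 4.96, 5.15 and 5.25 at 0.1 Gy and 5.12, 5.60 and 5.57 at 1.0 Gy. Every irradiated array was above every control, narrowly for the lowest adult 0.1 Gy array, and the embryo 0.1 Gy arrays were above all others. Bik differed from control by 1.59 ± 0.17 (3.01-fold), 0.78 ± 0.17, 0.45 ± 0.17 and 0.76 ± 0.17 in the embryo 0.1, embryo 1.0, adult 0.1 and adult 1.0 Gy groups. When the 4 arrays were left out they were 1.34, 0.53, 0.32 and 0.50. The control values of bik lay below the medians of the control arrays (5.01 to 5.09), so the differences start from a low signal.

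Badb, whose mammalian counterpart is held inactive by phosphorylation and 14-3-3 proteins, was read by 2 probe sets, both highest in the embryo 0.1 Gy group. The brighter read 6.21, 5.83 and 5.80 in the controls and 6.42, 6.57 and 6.38 in the embryo 0.1 Gy group. The other 9 arrays lay between 6.01 and 6.42. The differences from control were 0.51 ± 0.13 and 0.28 ± 0.13 in the embryo groups and 0.17 ± 0.13 and 0.33 ± 0.13 in the adult groups. The second probe set gave 0.72 ± 0.18, 0.49 ± 0.18, 0.21 ± 0.18 and 0.31 ± 0.18 in the same order. Control replicate 1 was the highest control in both, and with it as the only control the differences of the brighter probe set were 0.25, 0.02, -0.20 and 0.06.

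Baxa, the pore-forming effector, read 6.48, 6.94 and 6.69 in the controls. It read 6.38, 6.38 and 6.18 in the embryo 0.1 Gy group, 6.71, 6.42 and 6.53 in the embryo 1.0 Gy group, 6.96, 7.22 and 7.31 in the adult 0.1 Gy group and 7.40, 6.85 and 7.08 in the adult 1.0 Gy group. The embryo 0.1 Gy arrays lay below all controls and the adult 0.1 Gy arrays above them, in each case by a narrow margin, and the other groups overlapped with the controls. For baxa the differences were -0.39 ± 0.16, -0.15 ± 0.16, 0.46 ± 0.16 and 0.41 ± 0.16 in the embryo 0.1, embryo 1.0, adult 0.1 and adult 1.0 Gy groups, and -0.16, 0.08, 0.83 and 0.64 without the 4 arrays.

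**Figure D2:**
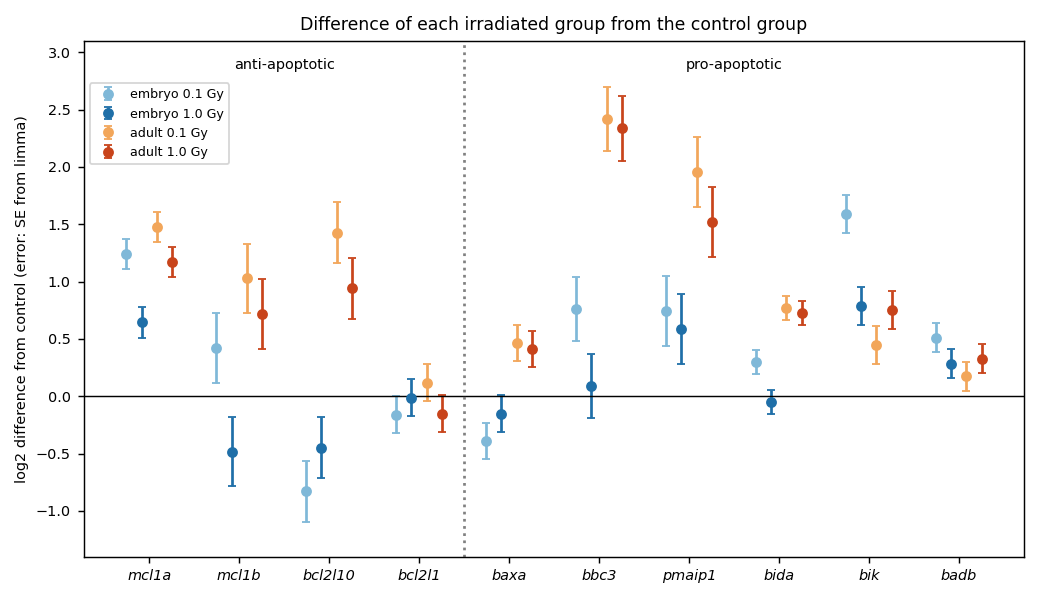
Log2 difference of each irradiated group from the control group for the 10 genes, with anti-apoptotic genes left and pro-apoptotic genes right of the dotted line. Points are differences of group means and error bars are SEs from limma. Bbc3 in the adult groups reaches 2.42 and 2.34, and bcl2l10 in the embryo groups reaches -0.83 and -0.45.

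A gene was counted as called where the F-test over the 5 groups and the comparison itself each had an adjusted p under 0.05 in limma, over the 8634 probe sets whose interquartile range reached 0.2, a filter that all 13 probe sets passed. In the adult 0.1 Gy group 8 of 10 genes were called, all higher (not bcl2l1 or badb), against 34.4% of all probe sets (12.2% higher). In the adult 1.0 Gy group 8 were called, all higher (not bcl2l1 or mcl1b), against 36.9% (13.4% higher). In the embryo 0.1 Gy group mcl1a, bik and badb were called higher and bcl2l10 lower, against 17.1% (6.65% higher and 10.4% lower), and in the embryo 1.0 Gy group mcl1a and bik were called higher, against 17.2% (5.61% higher). Because these comparisons entered the choice of the genes and share the same 3 controls, nothing is read from the counts. All arrays of the adult 0.1 Gy group lay above all controls for 8 genes (23.6% of all probe sets) and below them for 0 (28.1%), and in the adult 1.0 Gy group this held for 7 (29.2%) and 0 (30.3%). For the embryo 0.1 Gy group the counts were 6 above (16.8%) and 2 below (16.4%), and for the embryo 1.0 Gy group 3 above (16.5%) and 1, bida, below (19%). The median difference over the 10 genes was 0.90, 0.74, 0.47 and 0.04 in the 4 groups, beside 0.01, 0.01, 0.03 and 0.03 over all probe sets tested.

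The counts depended on single arrays and on the 4 arrays with conflicting source names. With each of the 15 arrays left out in turn, baxa in the adult 1.0 Gy group was called in 4 of the 15 fits, bik in the adult 0.1 Gy group in 9 and bcl2l10 in the embryo 0.1 Gy group in 7. Badb fell under the filter in 4 of these fits, and of the other 11 it was called in 2 in the adult 1.0 Gy group and in 8 in the embryo 0.1 Gy group. The adult 0.1 Gy count fell to 5 without adult 0.1 Gy replicate 3, and the adult 1.0 Gy count fell to 5 without adult 1.0 Gy replicate 3. Over the 15 fits the counts of all probe sets in these groups ran from 2105 to 3027 and from 2225 to 3261. The embryo 0.1 Gy count fell to 2 without control replicate 2 (from 1474 to 780 over all probe sets) or 3, embryo 0.1 Gy replicate 1 or 2, embryo 1.0 Gy replicate 2 or adult 1.0 Gy replicate 1. The embryo 1.0 Gy count rose to 4 without control replicate 1 (from 1483 to 1896 over all probe sets). Without the 4 arrays it was 5 in the adult 0.1 Gy group and 0 in the embryo 1.0 Gy group, while the share over all probe sets fell to 11.6% and 0.698%.

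The sides of the family were described at mRNA level for each array by the median distance from the control mean over the 4 anti-apoptotic and over the 6 pro-apoptotic genes. These distances are built from the control differences that chose the genes and are a description. In the adult 0.1 Gy arrays the anti-apoptotic median (1.20 ± 0.29, SD, n = 3) exceeded the pro-apoptotic median (0.62 ± 0.08) in each array, by 0.36 to 0.88. A median leaves out the size of the extremes. The largest differences of that group were those of the pro-apoptotic bbc3 (2.42) and pmaip1 (1.95), followed by the anti-apoptotic mcl1a (1.48) and bcl2l10 (1.43). In the adult 1.0 Gy arrays the medians were near each other, at 0.75 ± 0.12 and 0.78 ± 0.02. In the embryo 0.1 Gy arrays the pro-apoptotic median (0.54 ± 0.17) exceeded the anti-apoptotic median (0.13 ± 0.18) in each array, and in the embryo 1.0 Gy arrays it did so with 0.20 ± 0.08 against -0.18 ± 0.22. In the controls the pro-apoptotic minus anti-apoptotic difference ran from -0.43 to 0.31, and the embryo values of 0.17 to 0.51 overlapped with that range. Of the adult 0.1 Gy arrays replicate 1, at -0.36, also lay inside it, and replicates 2 and 3 lay below it, at -0.48 and -0.88. Without the 4 arrays the median differences of the anti-apoptotic and pro-apoptotic genes were 0.46 and 0.40 in the embryo 0.1 Gy group and 0.17 and 0.09 in the embryo 1.0 Gy group, so their order turned in both and the sign of the anti-apoptotic median turned at 1.0 Gy. In the adult groups they were 1.79 and 0.73 at 0.1 Gy and 1.07 and 0.74 at 1.0 Gy.

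**Figure D3:**
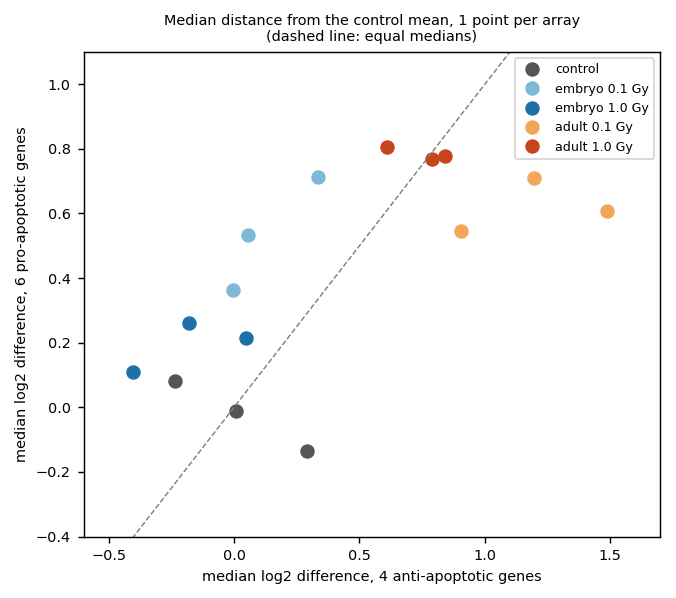
Median log2 distance from the control mean over the 4 anti-apoptotic genes (horizontal) and the 6 pro-apoptotic genes (vertical). Each point is an array, and on the dashed line both medians are equal. The adult 0.1 Gy arrays lie below the line by 0.36 to 0.88 and all 6 embryo arrays lie above it.

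The dose comparison within each timing does not use the control means, but it is the difference between control differences that chose the genes. Its p values are from limma over all 8634 probe sets and are given as a description. Among fish irradiated as embryos, mcl1a was higher after 0.1 than after 1.0 Gy (0.60 ± 0.13, adjusted p = 0.045), and so was bik (0.81 ± 0.17, adjusted p = 0.031). These were 2 of 10 genes, against 1.24% of all probe sets (0.405% higher). For mcl1a, mcl1b, bik and bida the 3 low-dose arrays lay above the 3 high-dose arrays (10.1% of all probe sets), and for baxa below them (9.5%). Since the choice of the genes used values of the same arrays, neither the count nor the p values are independent evidence. Bida (0.35 ± 0.10, 95% interval 0.12 to 0.57, adjusted p = 0.13), mcl1b (0.90 ± 0.30, 0.25 to 1.55, adjusted p = 0.19) and bbc3 (0.67 ± 0.28, 0.07 to 1.28, adjusted p = 0.31) leaned the same way without passing. The mcl1a call was kept in 3 and the bik call in 11 of the 15 fits that left out 1 array, with neither called without embryo 0.1 Gy replicate 2 or 3 or embryo 1.0 Gy replicate 1 or 3, and without the 4 arrays mcl1a gave 0.60 (adjusted p = 0.04) and bik 0.81 (adjusted p = 0.053). Neither was called without both adult 0.1 Gy arrays among those 4, and mcl1a was not called after a further quantile normalization.

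Among fish irradiated as adults 0 of the 10 genes differed between doses in limma, against 0.0811% of all probe sets, and 1 gene (mcl1a) had an unadjusted p under 0.05. Mcl1a was 0.31 ± 0.13 higher after 0.1 Gy (95% interval 0.02 to 0.59, adjusted p = 0.37). For mcl1a, mcl1b and bcl2l1 the low-dose arrays lay above the high-dose arrays, as for 9.52% of all probe sets. The intervals of the difference were -0.52 to 0.69 for bbc3, -0.22 to 1.08 for pmaip1, -0.18 to 0.27 for bida and -0.08 to 1.05 for bcl2l10. They were -0.34 to 0.96 for mcl1b and -0.07 to 0.62 for bcl2l1. A difference of 0.60, as seen for mcl1a in the embryo groups, was thus inside the interval for bbc3, pmaip1, bcl2l10, mcl1b and bcl2l1.

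Of the 10 genes only bik was called for a dose difference that depended on the timing. It was 0.81 higher at the low dose in the embryo groups and 0.31 ± 0.17 lower at the low dose in the adult groups (adjusted p = 0.48), and the interaction, which is the difference between these dose differences divided by 2, was 0.56 ± 0.12 (adjusted p = 0.046, against 0.707% of all probe sets called). The interaction is built from the control differences that chose the genes, so its p value is a description. The bik call was kept in 2 of the 15 fits without 1 array. Without the 4 arrays the interaction was 0.50 and was not called. The call was also lost without the interquartile range filter and with array medians subtracted. The plot of the dose differences sets both timings against each other.

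**Figure D4:**
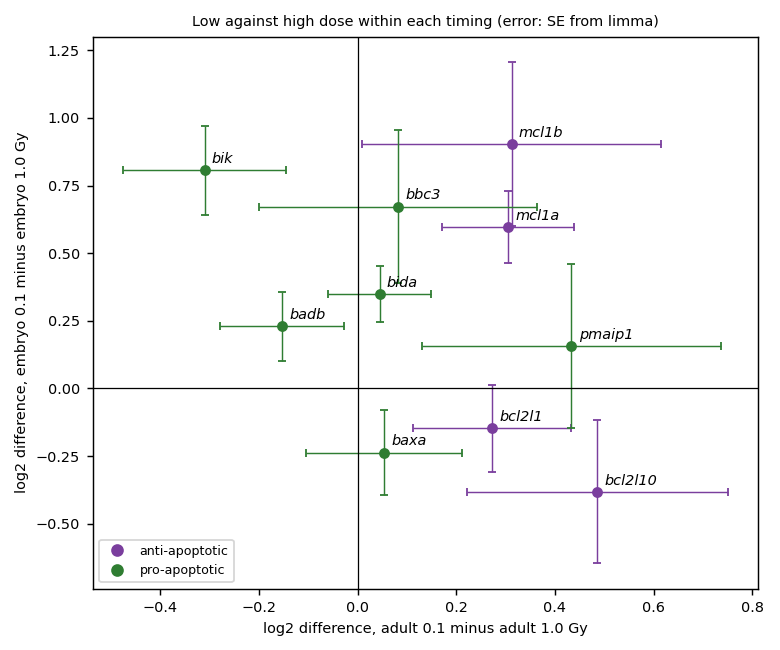
Log2 difference between 0.1 and 1.0 Gy within the adult groups (horizontal) and within the embryo groups (vertical) for the 10 genes. Points above 0 were higher at the low dose, and error bars are SEs from limma. Bik lies at -0.31 and 0.81, and mcl1a at 0.31 and 0.60.

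Between the timings, with doses averaged, 7 genes were lower and bik was higher in the embryo than in the adult groups, against 33.3% of all probe sets called (12.7% lower and 20.6% higher). The differences were -1.95 ± 0.20 for bbc3, -1.82 ± 0.19 for bcl2l10, -1.07 ± 0.21 for pmaip1, -0.90 ± 0.21 for mcl1b, -0.71 ± 0.11 for baxa, -0.62 ± 0.07 for bida, -0.38 ± 0.09 for mcl1a and 0.59 ± 0.12 for bik. For the first 6 of these all 6 embryo arrays lay below all 6 adult arrays, which held for 5.61% of all probe sets (11% for the opposite order), and mcl1a and bik overlapped. This comparison entered the choice of the genes, so nothing is read from the count.

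Of the genes read by 2 probe sets, badb gave positive differences from control with both in all 4 groups, and the differences of bcl2l1 stayed between -0.16 and 0.12 with both. For pmaip1 the second probe set had a low signal, 3.09 to 3.66 over the arrays, and its adult differences of 0.34 ± 0.10 and 0.29 ± 0.10 were smaller than those of the first. In the embryo groups it read -0.02 ± 0.10 at both doses, where the first probe set gave 0.74 and 0.58. The correlation of the pmaip1 probe sets over the 15 arrays was 0.75, and 0.05 once group means were removed.

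**Figure D5:**
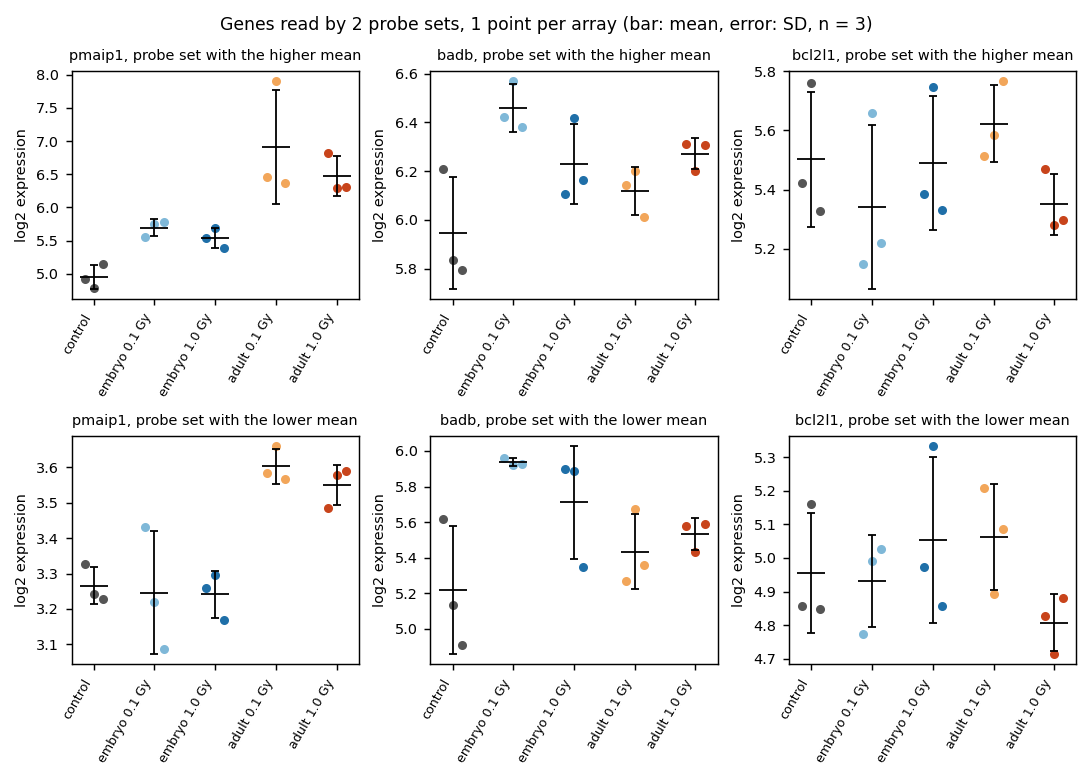
Log2 expression by both probe sets of pmaip1, badb and bcl2l1 in the 5 groups, with the brighter probe set above. Points are arrays, bars are means and error bars are the SD over 3 arrays. The lower pmaip1 probe set separates the adult arrays only, within a range of 3.09 to 3.66.

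The genes moved in groups over the 15 arrays. Bbc3 correlated with bida (r = 0.96) and with pmaip1 (r = 0.89), bcl2l10 with baxa (r = 0.91) and bik with badb (r = 0.84), whereas bik and baxa ran opposite (r = -0.54). After group means were removed these were 0.55, 0.54, 0.52, 0.39 and -0.58. The points share arrays and 5 group levels, and the correlations are a description. Among all named genes with a tested probe set, casp9 (r = 0.94) was most like mcl1a, prelid3b (r = 0.89) was most like mcl1b and ell, a transcription elongation factor, was most like bcl2l10 (r = 0.94). Nearest to bik was znf395b (r = 0.92), to pmaip1 the general transcription factor gtf2b (r = 0.91), to bida the insulin-like growth factor binding protein igfbp1b (r = 0.97), to baxa the cotransporter slc12a7b (r = 0.94) and to badb dffb, the caspase-activated nuclease (r = 0.91). After bida, ivns1abpb (r = 0.96) was most like bbc3, and chmp2bb (r = 0.70) was most like bcl2l1. These genes were picked as the highest correlations among 6459 probe sets. With group means removed, their correlations ran from 0.44 (znf395b with bik) to 0.81 (slc12a7b with baxa).

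A list of 23 further Bcl-2 family genes was written from general knowledge, with earlier results of these arrays known. Of these genes 5 were measured, and 4 varied enough to be tested. In each adult group 3 of the 4 were called higher, beside 12.2% and 13.4% of all probe sets called higher at 0.1 and 1.0 Gy. In the embryo 0.1 and 1.0 Gy groups 2 and 1 were called higher, beside 6.65% and 5.61%. Nothing is read from these counts, and the adjusted p values are a description. Bnip3lb, which in mammals takes part in the removal of mitochondria, was higher in both adult groups (1.57 ± 0.33, adjusted p = 0.0021 at 0.1 Gy and 1.58 ± 0.33, adjusted p = 0.0019 at 1.0 Gy) and at 0.03 and 0.02 in the embryo groups. Bada, the other zebrafish copy of Bad, was higher in both adult groups (0.66 ± 0.13, adjusted p = 0.0013 and 0.85 ± 0.13, adjusted p = 0.00019) and in the embryo 0.1 Gy group (0.61 ± 0.13, adjusted p = 0.0048). Bnip3 was higher in all 4 groups, from 0.52 to 0.70, with adjusted p between 0.0055 and 0.034. Bokb, an effector-like member, was not called, with differences of -0.30 to 0.08, and bcl2l13 was not tested. Without the 4 arrays bnip3lb in the adult 0.1 Gy group (2.01, adjusted p = 0.049) was the only one of these calls that was kept.

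The pathway lists below were also written with earlier results of these arrays known. Genes named from them had the largest mean differences among genes called in both adult or both embryo groups. Their adjusted p values are therefore a description. Downstream of the mitochondrion, 17 of 34 listed apoptosome and caspase genes were measured and 11 tested. In each adult group 3 were higher and 2 lower, in the embryo 0.1 Gy group 3 higher and 2 lower, and in the embryo 1.0 Gy group 2 higher and 2 lower, beside 34.4%, 36.9%, 17.1% and 17.2% of all probe sets called in the adult 0.1, adult 1.0, embryo 0.1 and embryo 1.0 Gy groups. The 4 arrays aside, the counts were 2 and 1, 2 and 1, 1 and 0, and 0 and 0 of 11, beside 11.6%, 14.6%, 3.28% and 0.698%. Casp9, the initiator caspase, was higher in all 4 groups (2.13 ± 0.21 and 1.62 ± 0.21 in the adult groups, 1.35 ± 0.21 and 0.82 ± 0.21 in the embryo groups, adjusted p from 8.2e-06 to 0.018). Cycsb, a cytochrome c gene, was lower in all 4 groups (-1.84 ± 0.19, -1.93 ± 0.19, -1.41 ± 0.19 and -1.02 ± 0.19, adjusted p from 9.8e-06 to 0.0045), and so was aifm1, the mitochondrial apoptosis-inducing factor (-0.62, -1.003, -0.56 and -0.66, adjusted p from 0.00012 to 0.015). Diabloa, which relieves caspases from their inhibitors, was higher in both adult groups and after 0.1 Gy in embryos, and differed between the embryo doses (1.66 ± 0.31, adjusted p = 0.02). With the 4 arrays left out casp9 was called in both adult groups (2.67 and 1.60) and in the embryo 0.1 Gy group (1.33), cycsb in both adult groups (-1.32 and -1.45), and aifm1 in none. Diabloa was then called in the adult 1.0 Gy group (1.76) and between the embryo doses (1.66, adjusted p = 0.033), and not in the adult 0.1 Gy (1.14, adjusted p = 0.21) or embryo 0.1 Gy group (1.68, adjusted p = 0.073).

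Of 32 p53 target genes other than the members, 22 were measured and 14 tested, and 7 were higher and 3 lower in the adult 0.1 Gy group, 6 and 1 in the adult 1.0 Gy group, 5 and 0 in the embryo 0.1 Gy group and 2 and 1 in the embryo 1.0 Gy group, beside the 34.4%, 36.9%, 17.1% and 17.2% of all probe sets. Tp53inp1, which promotes p53 activity in mammals, was higher in the adult groups by 2.40 ± 0.29 (adjusted p = 4e-05) and 2.46 ± 0.29 (adjusted p = 3.3e-05). Mdm2, the inhibitor of p53, was higher by 0.54 ± 0.11 and 0.70 ± 0.11 (adjusted p = 0.0024 and 0.00034). Ddb2, a DNA damage sensor, was higher in all 4 groups (0.86, 0.58, 0.97 and 0.78, adjusted p from 0.0023 to 0.021). Ccng2, a cyclin G gene, was higher in the adult groups (1.02 ± 0.22 and 1.41 ± 0.22, adjusted p = 0.0024 and 0.00024) and higher at the low than at the high embryo dose (1.104 ± 0.22, adjusted p = 0.025). With these 4 arrays left out, the tp53inp1 and mdm2 calls in the adult groups were kept, ddb2 was called in none of the 4 groups, and ccng2 was called in the adult 1.0 Gy group (1.53) but not in the adult 0.1 Gy group (1.01, adjusted p = 0.17) or between the embryo doses (1.104, adjusted p = 0.062). Over the list fewer genes were then called in each of the 4 groups, as over all probe sets.

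Upstream of Bad and Mcl1 protein, 16 of 35 listed regulators were tested (20 measured), with 4 higher and 4 lower in the adult 0.1 Gy group, 4 and 5 in the adult 1.0 Gy group, 1 and 4 in the embryo 0.1 Gy group and 0 and 6 in the embryo 1.0 Gy group, against the same 34.4%, 36.9%, 17.1% and 17.2% of all probe sets. Leaving the 4 arrays out gave fewer calls in each of the 4 groups, as over all probe sets. Pim1, a kinase that phosphorylates Bad in mammals, was higher in the adult groups (2.46 ± 0.17 and 1.33 ± 0.17, adjusted p = 5.6e-07 and 5.4e-05), and so was pim2 (0.62 ± 0.17 and 0.94 ± 0.17, adjusted p = 0.01 and 0.00072). The 14-3-3 genes ywhaqa (-1.15, -1.42, -0.87 and -0.50, adjusted p from 7.2e-06 to 0.021) and ywhae1 (-0.73, -0.85, -0.53 and -0.56, adjusted p from 8.2e-05 to 0.0066) were lower in all 4 groups. Pim1 kept both adult calls without the 4 arrays (2.75 and 1.45), and pim2 was called at 1.0 Gy (0.92) but not at 0.1 Gy. Ywhaqa was then lower in both adult groups (-1.33 and -1.31) and the embryo 0.1 Gy group (-0.76) and not called in the embryo 1.0 Gy group (-0.40), and ywhae1 was called in the adult 1.0 Gy group (-0.72) and in none of the others (-0.67, -0.40 and -0.43). Gsk3ba, a kinase that marks Mcl1 for degradation in mammals, was lower in the embryo groups (-0.62 ± 0.20 and -0.63 ± 0.20, adjusted p = 0.042 and 0.039), and without the 4 arrays its differences were -0.08 and -0.10.

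A further list held 29 transcription factors and stress genes, of which some act on BH3-only genes in other systems (21 measured, 18 tested). Whether the genes named here act on the members was not tested. In the adult 0.1 Gy group 5 were higher and 2 lower, and in the adult 1.0 Gy group 4 and 3. In the embryo 0.1 Gy group 2 were higher and 3 lower, and in the embryo 1.0 Gy group 1 and 0. Over all probe sets 34.4%, 36.9%, 17.1% and 17.2% were called in the same order. With the 4 arrays left out fewer listed genes were called in each of the 4 groups, as over all probe sets. Cebpa, a hepatocyte transcription factor, was lower in the adult groups (-2.91 ± 0.42 and -4.53 ± 0.42, adjusted p = 0.00015 and 6.5e-06), and cebpb was higher (1.01 ± 0.17 and 0.48 ± 0.17, adjusted p = 0.00045 and 0.032). Chac1, a glutathione-degrading enzyme of the unfolded protein response, was higher by 2.52 ± 0.45 and 1.52 ± 0.45 (adjusted p = 0.00066 and 0.015), and junbb by 2.20 ± 0.56 and 1.59 ± 0.56 (adjusted p = 0.0074 and 0.035). In the fit without the 4 arrays the cebpa and chac1 calls in the adult groups were kept and the cebpb and junbb calls were lost. Of 20 death receptor genes 12 were measured and 6 tested, and 0 were called in any of the 4 groups, beside the same 34.4%, 36.9%, 17.1% and 17.2% of all probe sets. Nothing is read from so few genes.

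Markers of other cell types varied between arrays, and in bulk liver fewer cells of a type and less RNA per cell cannot be told apart. The summed linear level of 11 measured leukocyte markers of 14 was 1033 to 1771 in the controls. It was 1873 to 2018 and 1763 to 3416 in the embryo 0.1 and 1.0 Gy groups. In the adult 0.1 and 1.0 Gy groups it was 1735 to 2230 and 1881 to 1963. Most irradiated arrays thus had a higher sum than the controls. Cd74a (8.87 to 11.02, log2) and cd74b (7.32 to 9.29) had the highest means of these markers and weighed most in the sum. Mcl1a, bik and the brighter pmaip1 probe set were above all controls in every irradiated array. All 6 adult arrays lay above all 3 controls for 18.8% of all probe sets, and all 6 embryo arrays for 8.3%. The genes were chosen on these control differences, so nothing is read from their number. The second pmaip1 probe set was not higher in the embryo groups, with differences from control of -0.02 at both doses. The leukocyte antigen ptprc stayed between 4.098 and 4.50 (log2) and csf1ra between 4.02 and 4.43. Both lay below the array medians of 5.01 to 5.14, where a low signal limits what a narrow range can show. Lyz ran from 5.28 to 7.87 and marco from 5.76 to 7.86. Of 9 tested leukocyte markers 1 was called higher in each of the adult 0.1 Gy and embryo 1.0 Gy groups, beside 12.2% and 5.61% of all probe sets. Muscle markers summed to 265 to 386 in the controls and reached 4359 in 1 adult 1.0 Gy array, exocrine pancreas markers ranged from 10201 to 93961 over the arrays, and erythrocyte markers from 3877 to 10301. The summed level of 6 measured biliary markers of 7 was 9719 to 10577 in the controls and 11103 to 12198 in the adult 0.1 Gy group, without overlap, and 9049 to 12063 in the other groups. Of 5 tested biliary markers 2 were called higher in the adult 0.1 Gy group, 1 in the adult 1.0 Gy group and 2 lower in the embryo than in the adult groups. In these directions 12.2%, 13.4% and 12.7% of all probe sets were called. Without the 4 arrays fewer biliary markers were called in the adult groups, and their number between the timings did not change. Of 3 tested hepatocyte markers 1 was called higher in the adult 1.0 Gy group and 2 were lower in the embryo than in the adult groups, beside the same 13.4% and 12.7%. None of these calls remained without the 4 arrays. No muscle, pancreas, erythrocyte or germ cell marker was called in any of the 4 comparisons with control. Of all probe sets 34.4%, 36.9%, 17.1% and 17.2% were called in the adult 0.1, adult 1.0, embryo 0.1 and embryo 1.0 Gy groups. The part of these cell types in the differences above was not tested.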

How the data were processed

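The authors deposited log2 probe set expression of 15 arrays, made by quantile normalization and Robust Multiarray Average after a quality check with affyPLM, with versions not given in the sources used here. Values were used as deposited. Of 15617 probe sets, 115 manufacturer controls were left out. The array annotation and the gene table gave 1 symbol for 10795 of the others, several for 135 and none for 4572, and 1 symbol was updated. The 8634 probe sets whose interquartile range reached 0.2 were fitted with limma 3.58.1 (R 4.3.3), as 5 group means with moderated variances and two-sided tests. A call needs a Benjamini-Hochberg adjusted p under 0.05 in the F-test (passed by 4352) and in the comparison. For each gene the probe set with the highest mean was the main one. Replicate numbers did not pair the arrays. The number of arrays limits the precision.

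Members and lists were chosen with earlier results of these data known. Genes named are all members, all measured genes of the list of other Bcl-2 genes, up to 4 genes per further list with the largest mean difference among those called in both adult groups, up to 2 likewise for the embryo groups, and for each member up to 2 genes with the highest correlation. Title, dose and timing entries gave the groups. Alternatives covered the filter, the F-test, scaling, weights, a replicate block, probe set averaging and left-out arrays. The steps were tested on simulated data.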

Additional observations from a re-analysis of the deposited data

Results flagged for a closer look

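The embryo minus adult difference, with doses averaged, passed the threshold used for all probe sets for 8 of the 10 members. Of 4 other Bcl-2 genes tested, bada and bnip3lb passed it. Over all probe sets 33.3% passed (12.7% lower and 20.6% higher). For the 8 members this comparison was among the values they were chosen on, so their differences are a description and no test of the timing. They were -0.38 for mcl1a, -0.90 for mcl1b, -1.82 for bcl2l10, -1.95 for bbc3, -1.07 for pmaip1, -0.62 for bida, -0.71 for baxa and 0.59 for bik. Among the other Bcl-2 genes the differences were -0.26 for bada and -1.55 for bnip3lb. For bada the difference was -0.19 without the 4 arrays whose source name reads as another group, and was not called there. For bik the interaction of timing and dose, built from the control differences that chose the genes, was 0.56. This call was kept in 2 of the 15 fits that left out 1 array.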

How the results depend on the processing

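Family genes called in the adult 0.1 Gy group numbered 5 in place of 8 without the 4 arrays whose source name reads as another group, and 5 without both adult 0.1 Gy arrays among them. In the embryo 0.1 and 1.0 Gy groups 8 and 5 were called with array weights, and in the embryo 1.0 Gy group 0 without the 4 arrays or without both controls among them. For the embryo dose difference the count was 1 with a further quantile normalization or without the 4 arrays, and 0 without both adult 0.1 Gy arrays. For the interaction it was 0 without the interquartile range filter, with array medians subtracted, without the 4 arrays and without both adult 0.1 Gy arrays.

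Median differences of the anti-apoptotic genes without the 4 arrays were 0.46 and 0.17 (sign turned) in the embryo groups and 1.79 and 1.07 in the adult groups. Without both controls they were 0.46, 0.17 (sign turned), 1.5 and 1.07, and without both adult 0.1 Gy arrays 1.49 in that group. For the pro-apoptotic genes they were 0.09 (embryo 1.0 Gy), 0.73 and 0.74 (adult) without the 4 arrays, and 0.09, 0.74 and 0.74 without both controls. A further quantile normalization gave 0.74 and 0.86 in the adult groups, subtracted array medians 0.71 at 1.0 Gy, and probe set averages 0.76 at 1.0 Gy. The cause of these shifts was not tested.

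Same-numbered arrays of different groups did not deviate together (median r = -0.059 over 30 pairs, -0.29 to 0.18). With the replicate block the embryo dose count was 0 and the interaction count 0, and over all probe sets these counts fell from 107 to 66 and from 61 to 13.

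Without 1 array each, counts ranged from 5 to 8 (adult 0.1 Gy), 5 to 9 (adult 1.0 Gy), 2 to 5 (embryo 0.1 Gy), 2 to 4 (embryo 1.0 Gy), 0 to 3 (embryo dose) and 0 to 1 (interaction), and stayed at 8 between timings and 0 for the adult dose. Over all probe sets they ranged, in the same order, from 2105 to 3027, 2225 to 3261, 780 to 1734, 450 to 1896, 37 to 173 and 4 to 132. Between timings the range was 2370 to 3084, and for the adult dose 0 to 53. Anti-apoptotic medians ranged from -0.11 to 0.33, -0.34 to -0.01, 0.91 to 1.34 and 0.49 to 0.92 in the embryo 0.1, embryo 1.0, adult 0.1 and adult 1.0 Gy groups, negative in the first only without control replicate 1, and pro-apoptotic medians from 0.45 to 0.62, 0.15 to 0.29, 0.58 to 0.68 and 0.77 to 0.80. Badb was not tested in 4 of these 15 fits, where it fell under the filter.

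Over all probe sets 2967, 3182, 1474 and 1483 were called against control in the adult 0.1, adult 1.0, embryo 0.1 and embryo 1.0 Gy groups, 884, 1106, 249 and 53 without the 4 arrays, 4184, 4770, 3008 and 3552 with array weights, and 1295, 1305, 596 and 498 where the filter was 0.5, which leaves fewer probe sets. A low signal limits the second pmaip1 probe set, both bcl2l1 probe sets and the control values of bik.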
